A study of Homo sapiens with 16 samples.

Results

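The nuclear pore complex, the carriers that pass through it and the receptors that take mRNA out of the nucleus were followed in cytoplasmic RNA of U2OS-TR, a line of human osteosarcoma origin that makes the tetracycline repressor. Members were the protein-coding genes of GENCODE whose symbols belong to the numbered nucleoporins (NUP), the karyopherins (KPNA, KPNB), importins (IPO), transportins (TNPO) and exportins (XPO), the nuclear cap-binding proteins (NCBP) and the export factors of the NXF and NXT families. The rule used symbols alone and no measured value. It found 55 genes among the 60107 listed in every library, of which 23 were nucleoporins, 24 were carriers and 8 were cap-binding or NXF and NXT genes. Of these, 51 had a mean normalized count above 20 in the line with the transgene and were tested there, and 45 were tested in the parental line.

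The nuclear pore is a ring-shaped channel in the nuclear envelope, built from stacked outer and inner rings, a central channel lined with phenylalanine-glycine repeats, filaments on the cytoplasmic face and a basket on the nuclear face. Proteins cross it bound to carriers of the importin and exportin families, whose cargo binding is set by the small GTPase Ran. Most mRNA leaves through the same pore on a different receptor, the NXF1-NXT1 heterodimer. It does so after the cap-binding complex has bound its methylated cap and the TREX complex has been loaded.

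The study asked which mRNAs change when cap methylation is blocked in the cytoplasm. The agent was ΔN-RNMT, a catalytically inactive fragment of the cap methyltransferase RNMT that a viral export signal keeps in the cytoplasm, driven by a CMV promoter with tetracycline operators in 1 clonal line. Control (n = 5) was that line without induction and Induced (n = 5) was the same line after 24 h in doxycycline, added at 1 µg/ml 48 h after the cells were split. No Dox (n = 3) and With Dox (n = 3) were the parental U2OS-TR line, which has the repressor and no transgene, without and with doxycycline. All 16 libraries counted tags at the 3′ ends of polyadenylated RNA, so a count did not depend on transcript length. The 10 transgene libraries and the 6 parental libraries were sequenced at different sites and on different instruments, so line and sequencing site cannot be told apart.

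RNMT itself, whose tags could come from the gene or from the transgene, stood at 66.2, 55.6, 62.7, 74.6 and 112 CPM in Control 1 to 5 and at 278, 360.4, 266, 458 and 368 CPM in Induced 1 to 5. Every induced library was above every control library, and edgeR gave a log2 fold change of 2.22 ± 0.23 (SE, adjusted p = 0.00805). Here CPM is the count per 1000000 after scaling by the trimmed mean of M-values (TMM). Depth was 18991617 to 23251834 gene counts in Control, 12527183 to 20781875 in Induced and 1473286 to 3214808 in the parental libraries. Depth thus moved with induction, and its part in the results was not tested. VIM, COL1A1 and SPARC, which mark mesenchymal and bone lineage cells, were detected in all groups. ALPL, another bone marker, had 39 counts in Control, 77 in Induced, 2 in No Dox and 1 in With Dox. Scaled by total counts, the median of VIM was 108 CPM in Control and 546 CPM in Induced, and that of RUNX2, a bone transcription factor, was 6.85 and 20.6 CPM. The epithelial marker EPCAM was detected too, with 785 counts and a median of 6.52 CPM in Control against 1055 counts and 15.3 CPM in Induced. The part of these markers in the results was not tested. The osteoblast genes SP7 and BGLAP and the liver marker ALB had 0 counts, and COL1A2 had 2 counts in all. The blood marker PTPRC had 20 counts in Control and 43 in Induced, and PECAM1, of endothelium, had 0 and 3.

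Control 5 and Induced 2 stood apart from their groups. Over 13038 tested genes, log2 CPM in Control 5 correlated at a mean r of 0.911 with Control 1 to 4 and at 0.971 with the other induced libraries. In Induced 2 it correlated at 0.961 with Control 1 to 4 and at 0.935 with the other induced libraries. Among the other 8 libraries the mean r was 0.963 to 0.984 within the group and 0.804 to 0.900 with the other group. The same order held over the 51 tested members, where Control 5 had 0.902 and 0.953 and Induced 2 had 0.961 and 0.891. RNMT was at its induced level in Induced 2 and below every induced library in Control 5, so the targeted gene went with both labels. Results are therefore given with all 10 libraries and, where it matters, without Control 5 and Induced 2. These 2 libraries were left out because their profiles were like the other group's, so a wider separation of the groups without them follows in part from that choice and is no independent support.

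With all 10 libraries, 23 of the 51 tested members passed an adjusted p of 0.05 in edgeR's quasi-likelihood test, which is 45.1% of them against 39.8% of all genes tested. Of these, 16 were higher in Induced (31.4% of members, against 20.0% of all genes) and 7 were lower (13.7%, against 19.8%). The median log2 fold change of the members was 0.27, and that of all genes was 0.04. The share called was thus close to the background. Of 22 tested nucleoporins, 13 were called higher and 1 lower, with a median of 0.68. Of 23 tested carriers, 3 were called higher and 5 lower, with a median of 0.03. Of the 6 tested cap-binding, NXF and NXT genes, only NXF1 was called, and it was lower.

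**Figure D1:**
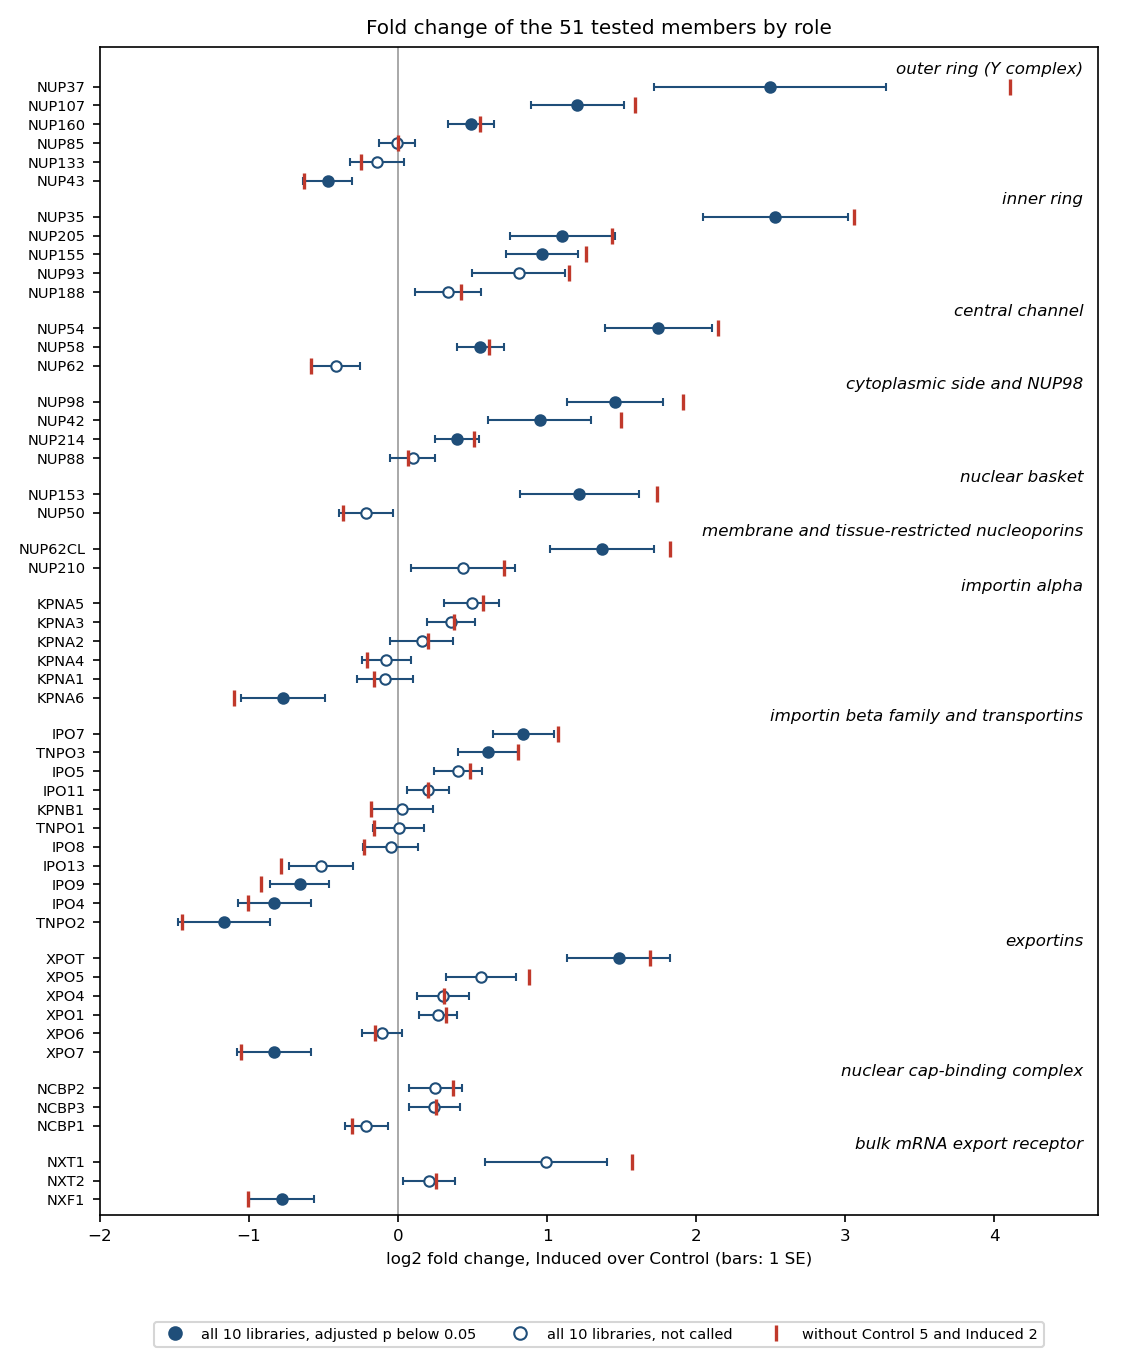
Log2 fold change of Induced over Control (horizontal axis) for the 51 tested members, grouped by role. Circles with bars are the estimate and 1 SE from all 10 libraries, filled where the adjusted p was below 0.05, and red ticks are the estimate without Control 5 and Induced 2. NUP37 shows the widest gap between them, from 2.50 to 4.11, and 3 of 5 inner ring genes are filled on the right.

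Without Control 5 and Induced 2, 31 of 51 members were called, 22 higher and 9 lower, against 64.3% of all genes. All 23 members called with 10 libraries were among them. With total counts in place of TMM as the scale, the median of all genes moved from 0.04 to 0.28 and the split of called members from 16 higher and 7 lower to 25 higher and 1 lower, beside 30.8% of all genes higher and 10.7% lower. The member median was then 0.51, which is again 0.23 above that of all genes. Of 23 called members, 8 were called in each of the 10 fits that left out 1 library, namely NUP35, NUP54, NUP62CL, NUP98, NUP107, NUP155, IPO7 and XPOT. Of the other 15, TNPO2 was called in 9 of the 10 fits, NXF1 in 7, and the rest in 1 to 6. The count of called members was lowest without Induced 1, at 8, and highest without Control 5, at 30. Over all genes, 1869 of 13100 were called without Induced 1 and 7604 of 12990 without Control 5. In bulk RNA, a lower share of cells that hold an mRNA and less of it per cell cannot be told apart.

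The outer ring of the pore is made of copies of the Y complex, whose subunits are present in a fixed ratio. The log2 fold changes of the 6 members in it ran from -0.47 to 2.50, with 3 called higher and 1 lower. Of all genes, 20.0% were called higher and 19.8% lower. NUP37, a small propeller protein of the Y complex, stood at 2.29, 2.69, 4.67, 3.34 and 27.4 CPM in Control 1 to 5 and at 60.7, 5.69, 58.9, 47.9 and 56.5 CPM in Induced 1 to 5. Induced 1, 3, 4 and 5 were above all controls, Induced 2 was near Control 1 to 4, and Control 5 lay between the groups. With all 10 libraries the log2 fold change was 2.50 ± 0.78 (SE, edgeR adjusted p = 0.0286), and without Control 5 and Induced 2 the log2 fold change was 4.11. NUP107, which joins the stem of the Y to its partners, had 3.81, 3.63, 3.17, 4.74 and 6.55 CPM in Control 1 to 5. Its levels in Induced 1 to 5 were 13.1, 4.09, 13.0, 11.2 and 9.38 CPM. Induced 2 fell within the controls and the other 4 induced libraries were above them, and edgeR gave a log2 fold change of 1.20 ± 0.31 (SE, adjusted p = 0.0184). NUP160, an arm of the Y, had 7.52, 8.13, 8.56, 7.21 and 7.90 CPM in the controls and 12.6, 9.08, 13.3, 10.7 and 9.68 CPM in the induced libraries. The groups did not overlap, and the log2 fold change was 0.49 ± 0.15 (SE, edgeR adjusted p = 0.0286).

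NUP43, another propeller of the outer ring, went the other way. Its levels were 79.3, 84.5, 96.8, 81.6 and 63.3 CPM in Control 1 to 5 and 61.1, 70.8, 60.2, 56.0 and 44.4 CPM in Induced 1 to 5. Induced 2 lay above Control 5 and the other induced libraries were below all controls, and edgeR gave a log2 fold change of -0.47 ± 0.16 (SE, adjusted p = 0.0403). NUP43 overlaps PCMT1 on the opposite strand, and whether the counting used strand is not given in the sources used here. NUP85 and NUP133, core members of the same complex, were not called, with log2 fold changes of -0.01 ± 0.12 and -0.14 ± 0.18 (SE). SEH1L, a Y complex subunit outside the symbol rule, stood at 15.4, 14.1, 11.3, 19.6 and 162 CPM in the controls and at 478, 25.7, 388, 342 and 367 CPM in the induced libraries. It too was low in Induced 2 and high in Control 5, and the log2 fold change was 2.84 ± 0.89 (SE, edgeR adjusted p = 0.0289). SEC13, also of the Y complex and outside the symbol rule, was not called, at -0.27 ± 0.16 (SE, edgeR adjusted p = 0.198). AHCTF1, which anchors the Y complex on chromatin as pores are rebuilt after mitosis, had 3.66, 3.39, 3.22, 4.21 and 9.50 CPM in Control and 15.6, 7.71, 15.2, 10.0 and 12.4 CPM in Induced, and edgeR gave a log2 fold change of 1.34 ± 0.33 (SE, adjusted p = 0.0177).

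In the inner ring, which holds the pore to the bending membrane, 3 of 5 genes were called and all 3 were higher. Of all genes, 20.0% were called higher. NUP35, the membrane-binding subunit, had the largest log2 fold change of all members with all 10 libraries and TMM scaling, just above NUP37, whose value was the larger with offsets for GC content (2.43 against 2.28). It stood at 3.76, 2.69, 2.83, 3.24 and 6.20 CPM in Control 1 to 5 and at 34.2, 3.43, 27.9, 23.7 and 19.8 CPM in Induced 1 to 5. Induced 2 was at the level of the controls, and the other 4 induced libraries were at 19.8 CPM or more, above all 5 controls. With all libraries the log2 fold change was 2.53 ± 0.49 (SE, edgeR adjusted p = 0.0175), and it was 3.06 without Control 5 and Induced 2. NUP35 lies at chr2:183117513-183161680 on the plus strand of GRCh38, and 2 pseudogenes carry its name. NUP155, a scaffold of the ring, had 13.7, 11.9, 9.17, 15.8 and 20.8 CPM in the controls and 32.7, 17.4, 33.7, 27.7 and 28.3 CPM in the induced libraries. Only Control 5 reached above Induced 2, and edgeR gave a log2 fold change of 0.97 ± 0.24 (SE, adjusted p = 0.0177). NUP205, a large scaffold protein, had 1.73, 4.27, 4.33, 3.29 and 4.77 CPM in the controls. In Induced 1 to 5 it had 8.87, 2.82, 10.3, 9.17 and 8.43 CPM, with Induced 2 inside the control range, and the log2 fold change was 1.10 ± 0.35 (SE, edgeR adjusted p = 0.0301). NUP93, the hub that links the ring to the channel, was not called at 0.81 ± 0.31 (SE), adjusted p = 0.0563 in edgeR, but was called with total counts (edgeR adjusted p = 0.0380) and with DESeq2 (adjusted p = 0.0366). NUP188 had 0.34 ± 0.22.

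The central channel is filled by NUP62, NUP58 and NUP54, which form 1 subcomplex and whose repeats make the permeability barrier. NUP54 stood at 4.62, 6.43, 6.45, 6.29 and 9.46 CPM in Control 1 to 5 and at 28.2, 6.35, 24.7, 22.8 and 29.9 CPM in Induced 1 to 5. Induced 2 lay within the controls and the other induced libraries were at 22.8 CPM or more, and edgeR gave a log2 fold change of 1.75 ± 0.36 (SE, adjusted p = 0.0175). NUP54 overlaps ART3 on the opposite strand. NUP58 had 14.6, 17.8, 21.1, 17.0 and 17.7 CPM in the controls and 25.9, 21.7, 21.9, 29.6 and 30.3 CPM in the induced libraries. The groups did not overlap, and the log2 fold change was 0.55 ± 0.16 (SE, edgeR adjusted p = 0.0224). NUP62, after which the subcomplex is named, had 251, 266, 303, 251 and 202 CPM in Control and 164, 235, 164, 177 and 212 CPM in Induced. Its groups overlapped through Control 5, Induced 2 and Induced 5, and with a log2 fold change of -0.42 ± 0.16 (SE) it was not called (edgeR adjusted p = 0.0570). Without Control 5 and Induced 2 the log2 fold change was -0.58. NUP62 overlaps ATF5 and IL4I1.

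On the cytoplasmic side, 3 of 4 genes were called and all 3 were higher, where 20.0% of all genes were higher. NUP98, a repeat protein at both faces of the pore that binds export factors, had 12.7, 9.71, 11.9, 13.7 and 25.3 CPM in Control 1 to 5 and 60.0, 20.1, 47.6, 31.0 and 43.8 CPM in Induced 1 to 5. Control 5 was above Induced 2 and below the other 4 induced libraries, and edgeR gave a log2 fold change of 1.46 ± 0.32 (SE, adjusted p = 0.0175). NUP98 overlaps PGAP2 on the opposite strand. NUP42, a filament protein that works with the export helicase, had 2.84, 3.98, 5.17, 5.23 and 11.4 CPM in Control and 14.2, 6.77, 13.6, 11.3 and 9.62 CPM in Induced. Control 5 lay among the induced libraries, and the log2 fold change was 0.95 ± 0.34 (SE, edgeR adjusted p = 0.0465). NUP214, which holds the NUP88 complex on the filaments, had 20.0, 19.9, 22.6, 23.1 and 30.1 CPM in the controls and 30.1, 29.4, 30.6, 30.4 and 31.5 CPM in the induced libraries. Control 5 reached the induced libraries, and edgeR gave a log2 fold change of 0.39 ± 0.15 (SE, adjusted p = 0.0497). Its call was kept in 1 of the 10 fits with a library left out. NUP88 had a log2 fold change of 0.10 ± 0.15 (SE).

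At the basket and membrane, NUP153, a basket protein that docks carriers and mRNPs, stood at 11.3, 12.1, 5.06, 19.8 and 33.6 CPM in the controls and at 50.4, 28.2, 40.2, 38.3 and 33.8 CPM in the induced libraries. Control 5 was above Induced 2 and just below Induced 5, and the log2 fold change was 1.22 ± 0.40 (SE, edgeR adjusted p = 0.0336). TPR, the main strand of the basket and outside the symbol rule, had a log2 fold change of 0.89 ± 0.29 (SE, edgeR adjusted p = 0.0314). NUP62CL, a NUP62-like gene of low level, had 0.813, 0.760, 1.06, 1.55 and 2.56 CPM in the controls. Its levels in Induced 1 to 5 were 5.00, 2.59, 4.19, 3.41 and 2.55 CPM, where Induced 5 was just under Control 5, and the log2 fold change was 1.37 ± 0.35 (SE, edgeR adjusted p = 0.0181). NUP50 and NUP210 were not called, at -0.22 ± 0.18 and 0.43 ± 0.35 (SE).

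**Figure D2:**
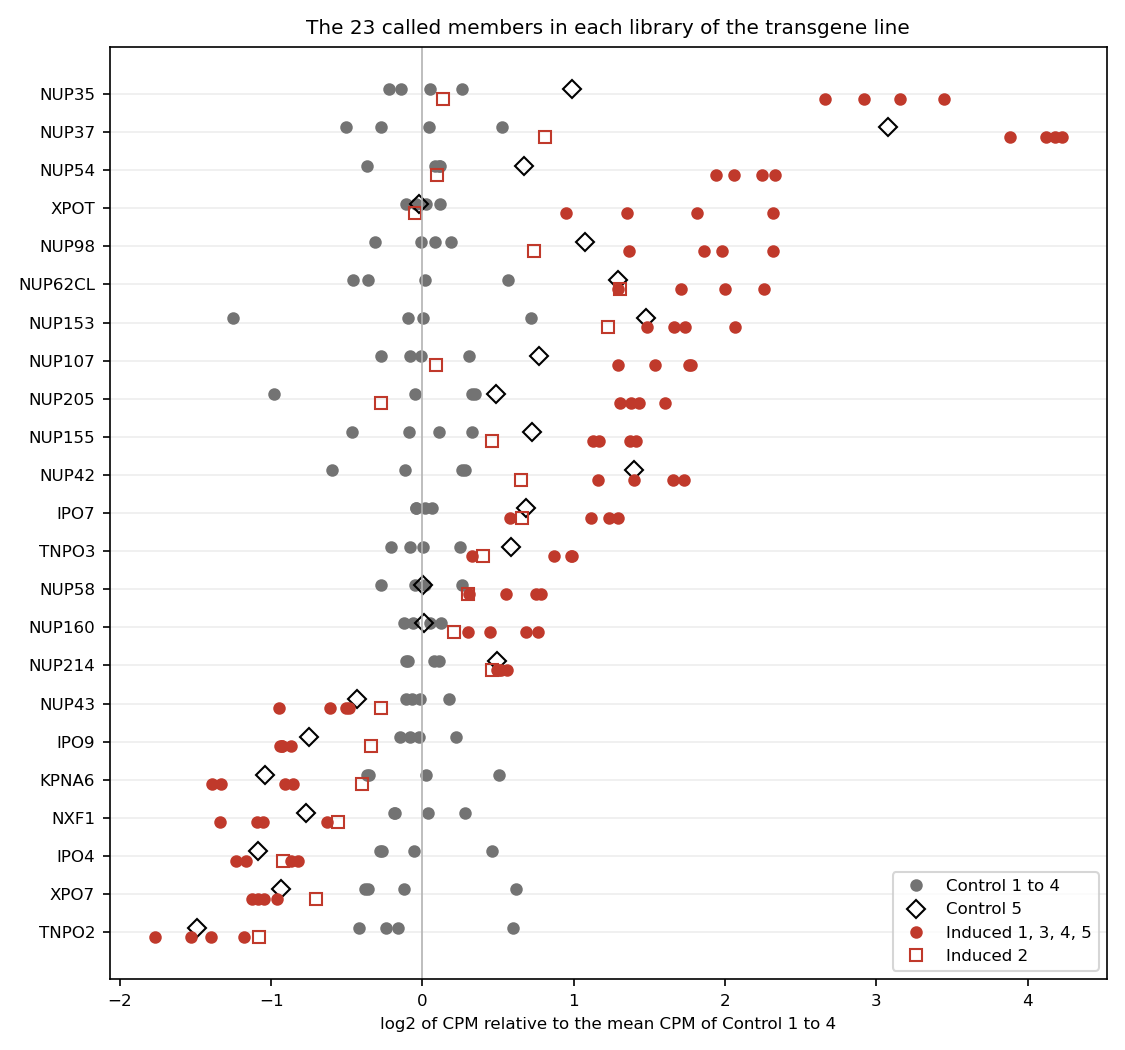
Log2 of CPM in each transgene library relative to the mean CPM of Control 1 to 4 (horizontal axis) for the 23 called members. Grey circles are Control 1 to 4, the open diamond is Control 5, red circles are Induced 1, 3, 4 and 5, and the open red square is Induced 2. Control 5 was the control library closest to the 4 other induced libraries for 20 of the 23 genes, and Induced 2 was the induced library closest to Control 1 to 4 for 19 of 23.

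The plot of called members by library shows how the 2 libraries bore on these calls. Groups did not overlap for 3 of 51 members, NUP58, NUP160 and KPNA5, all higher in Induced. That is 5.88% of members, against 7.30% of all genes whose groups did not overlap in either direction. Leaving out Control 5 and Induced 2, the groups did not overlap for 31 of 51 members (60.8%) and for 59.4% of all genes. All 23 called members were among those 31.

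Of the carriers, the beta family binds cargo and passes through the pore. In it 5 of 11 tested genes were called, 2 higher and 3 lower, against 20.0% and 19.8% of all genes. IPO7, which imports ribosomal proteins and histone H1, had 76.7, 73.4, 73.4, 79.3 and 122 CPM in Control 1 to 5 and 185, 119.7, 164, 178 and 113 CPM in Induced 1 to 5. Control 5 lay above Induced 2 and Induced 5, and edgeR gave a log2 fold change of 0.84 ± 0.20 (SE, adjusted p = 0.0175). TNPO3, which imports splicing factors rich in serine and arginine, had 91.7, 97.2, 84.1, 115 and 146 CPM in the controls and 193, 128, 177, 192 and 122 CPM in the induced libraries. Control 5 again lay above Induced 2 and Induced 5, and the log2 fold change was 0.60 ± 0.20 (SE, edgeR adjusted p = 0.0344). TNPO2, a transportin for RNA-binding proteins, had the lowest log2 fold change of any member with TMM scaling. It stood at 174, 184, 311, 154 and 73.3 CPM in Control 1 to 5 and at 60.5, 97.5, 71.2, 78.3 and 91.0 CPM in Induced 1 to 5. Control 5 was within the induced range and Control 1 to 4 were all above it, and edgeR gave a log2 fold change of -1.17 ± 0.31 (SE, adjusted p = 0.0187).

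IPO4, a carrier of histones and ribosomal proteins, had 16.4, 18.9, 27.1, 16.2 and 9.24 CPM in the controls and 8.35, 10.4, 10.8, 8.76 and 11.1 CPM in the induced libraries. Control 5 lay within the induced range and the other controls above it, and the log2 fold change was -0.83 ± 0.24 (SE, edgeR adjusted p = 0.0241). IPO4 overlaps REC8 on the opposite strand. IPO9, which carries histones and actin, had 108, 118, 140.0, 113 and 71.4 CPM in Control and 63.0, 94.7, 62.4, 65.6 and 62.9 CPM in Induced. Induced 2 was above Control 5 and the other induced libraries were below all controls, and edgeR gave a log2 fold change of -0.66 ± 0.20 (SE, adjusted p = 0.0249). KPNB1, the classical importin beta, stood at 251, 282, 256, 276 and 228 CPM in the controls and at 228, 373, 208, 328 and 183 CPM in the induced libraries. Its highest and its lowest levels were both in Induced, and the log2 fold change was 0.03 ± 0.20 (SE, edgeR adjusted p = 0.911). The others of the family, IPO5, IPO8, IPO11, IPO13 and TNPO1, were not called and lay between -0.52 and 0.40 in log2 fold change.

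The importin alpha proteins adapt classical nuclear localization signals to KPNB1, and 1 of 6 tested was called, against 39.8% of all genes. KPNA6 had 213, 278, 388, 212 and 133 CPM in Control 1 to 5 and 104, 207, 108, 151 and 145 CPM in Induced 1 to 5. Control 5 lay within the induced range and Induced 2 just below the other controls, and edgeR gave a log2 fold change of -0.77 ± 0.28 (SE, adjusted p = 0.0470). KPNA1, KPNA2, KPNA3, KPNA4 and KPNA5 had log2 fold changes from -0.09 to 0.49 and were not called. KPNA5 came nearest to the threshold at an adjusted p of 0.0520 in edgeR, with no overlap of the groups.

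Of 6 exportins, XPOT was called higher and XPO7 lower, against 20.0% of all genes higher and 19.8% lower. XPOT, the carrier that takes tRNA out of the nucleus, had 6.09, 7.13, 6.39, 6.68 and 6.46 CPM in the controls. In Induced 1 to 5 it had 32.7, 6.35, 23.2, 12.7 and 16.8 CPM. Induced 2 was within the controls, Control 5 was as low as the other controls, and the log2 fold change was 1.48 ± 0.35 (SE, edgeR adjusted p = 0.0175). XPO7, a carrier with a broad range of cargo, had 121, 144, 240.5, 123 and 82.0 CPM in Control 1 to 5 and 76.1, 96.3, 71.9, 80.4 and 73.7 CPM in Induced 1 to 5. Of the controls, only Control 5 was within the induced range, and edgeR gave a log2 fold change of -0.83 ± 0.25 (SE, adjusted p = 0.0250). XPO1, the exportin of proteins with leucine-rich signals, which is also the route of the viral export signal on the transgene, had 71.3, 69.0, 77.1, 72.4 and 74.4 CPM in the controls. In Induced 1 to 5 it had 96.2, 74.9, 88.9, 97.6 and 81.5 CPM, with Induced 2 inside the control range, and the log2 fold change was 0.27 ± 0.13 (SE, edgeR adjusted p = 0.101). XPO4, XPO5 and XPO6 lay between -0.11 and 0.56 and were not called.

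None of the 3 cap-binding genes was called, against 39.8% of all genes. NCBP1, the large subunit of the cap-binding complex, had 36.1, 40.0, 48.0, 38.6 and 32.2 CPM in Control 1 to 5 and 33.4, 36.6, 31.5, 36.6 and 30.0 CPM in Induced 1 to 5, and edgeR gave a log2 fold change of -0.21 ± 0.15 (SE, adjusted p = 0.242). NCBP2, which holds the methylated cap, had 118, 114, 127, 146 and 197 CPM in Control and 178, 181, 174, 173 and 129 CPM in Induced, with Control 5 above every induced library, and the log2 fold change was 0.25 ± 0.18 (SE, edgeR adjusted p = 0.261). NCBP3, a further protein associated with the complex, had 28.7, 33.5, 43.1, 31.9 and 28.0 CPM in Control and 44.5, 31.8, 42.1, 45.1 and 32.4 CPM in Induced, and edgeR gave a log2 fold change of 0.25 ± 0.17 (SE, adjusted p = 0.256). The groups overlapped for all 3. With bars of 2 SE around the estimate, the log2 fold change of NCBP1 lay between -0.50 and 0.08, that of NCBP2 between -0.11 and 0.61 and that of NCBP3 between -0.10 and 0.59.

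The subunits of the bulk mRNA export receptor had estimates of opposite sign. NXF1, the large subunit, which binds RNA and the pore, had 31.2, 31.0, 43.0, 36.2 and 20.7 CPM in Control 1 to 5 and 17.0, 24.0, 14.0, 16.5 and 22.8 CPM in Induced 1 to 5. Control 5 was below Induced 2 and Induced 5, the other controls were above all induced libraries, and the log2 fold change was -0.78 ± 0.22 (SE, edgeR adjusted p = 0.0212). NXT1, the small subunit, had 23.1, 18.9, 8.73, 27.3 and 56.2 CPM in the controls and 52.6, 32.9, 54.4, 45.9 and 81.8 CPM in the induced libraries. Control 5 was above 4 of 5 induced libraries, and edgeR gave a log2 fold change of 0.99 ± 0.41 (SE, adjusted p = 0.0693), so NXT1 was not called with all libraries. Without Control 5 and Induced 2 the log2 fold changes were -1.01 for NXF1 and 1.57 for NXT1. Counts of NXT1 per count of NXF1, a ratio that needs no scaling, were 0.20 to 2.71 in Control with a median of 0.74, and 1.37 to 3.88 in Induced with a median of 3.09. The pair was picked after its values were seen, so the ratio is given with no test. NXT2, a paralogue of NXT1, was not called at 0.21 ± 0.17 (SE).

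KPNA7 had 15 counts in all controls and 6 in all induced libraries, and NUP210L had 7 and 1. NXF2 had 0 counts in all 16 libraries and NXF3 had 1 count in a single parental library. These 4 genes were too low to test in the transgene line. Tags of near-identical copies could be split between genes, and GENCODE lists 3 pseudogenes each named for KPNA2, TNPO1 and NUP210. It lists 2 each for IPO7 and NUP35, and 1 each for TNPO3, NUP58, NXT1, XPOT, KPNB1, IPO5, IPO8, KPNA4 and NUP50.

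Other transport genes, from lists outside the symbol rule, were called in both directions, as were all genes tested (20.0% higher and 19.8% lower). Of 10 tested nucleoporins outside the numbered family, 4 were called higher and 1 lower, the latter RAE1, an export factor that docks on NUP98, at -0.76 ± 0.22 (SE, edgeR adjusted p = 0.0228). Of 7 genes of the Ran cycle, 1 was called higher and 4 lower, whereas with offsets for GC content 2 were called and both were higher, where 16.1% of all genes were higher and 7.10% lower. RANGAP1, which switches Ran off in the cytoplasm, had a log2 fold change of -0.85 ± 0.23 (SE, edgeR adjusted p = 0.0193), and RANBP1, its cofactor, had a log2 fold change of 0.79 ± 0.27 (SE, edgeR adjusted p = 0.0382). Of 18 tested genes of TREX, TREX-2 and the export helicases, 4 were called higher and 4 lower. ENY2, a small subunit of TREX-2, had a log2 fold change of 1.29 ± 0.36 (SE, edgeR adjusted p = 0.0215), and THOC7, a TREX subunit, had a log2 fold change of 1.18 ± 0.32 (SE, edgeR adjusted p = 0.0194). THOC1 and PCID2 were called higher too, at 1.12 and 1.09. Those called lower were DDX39A, at -0.95 ± 0.22 (SE, edgeR adjusted p = 0.0175), POLDIP3, at -0.86, THOC5, at -0.78, and DDX19B, at -0.59. None of 5 further carriers and none of 3 partners of the cap-binding complex was called.

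**Figure D3:**
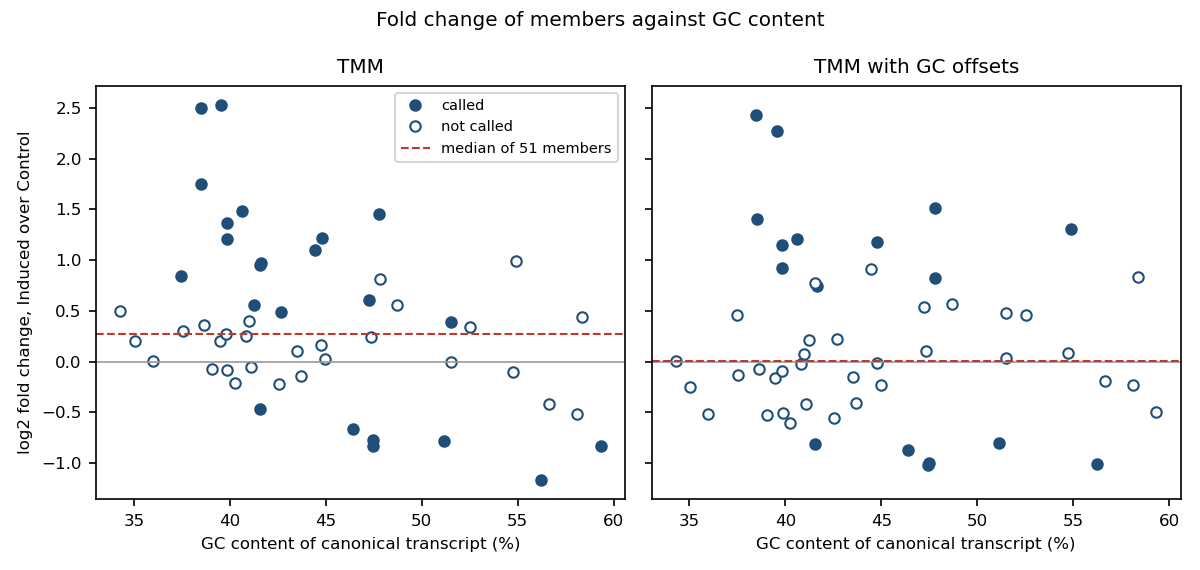
Log2 fold change of Induced over Control (vertical axis) against the GC content of the canonical transcript in percent (horizontal axis) for the 51 tested members, with TMM alone on the left and with offsets for GC content on the right. Filled circles are called members and the dashed line is the median of the 51, at 0.27 on the left and 0.01 on the right.

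Base composition was a property that the symbol rule did not use. The median GC content of the canonical transcript was 42.7% over the 51 tested members and 48.3% over all tested genes. It was 41.4% (37.5% to 51.5%) in the 16 members called higher and 47.5% (41.6% to 59.3%) in the 7 called lower. Across genes, the log2 fold change had a Spearman correlation with GC content of -0.34 over the members and of -0.43 over all genes. Genes are not independent replicates, and the points share the same 10 libraries. With offsets fitted to GC content in each library, 17 of 51 members were called, 11 higher and 6 lower, against 23.2% of all genes, and the member median moved from 0.27 to 0.01. The median of the nucleoporins was 0.68 with TMM alone and 0.76 with the offsets, with 9 then called higher and 1 lower, and that of the carriers was 0.03 and then -0.16, with 1 higher and 4 lower. All 23 called members kept their sign with the offsets, and 15 of them kept the call. Among those that lost it, the log2 fold change moved to 0.46 for IPO7, 0.54 for TNPO3, 0.22 for NUP58 and 0.22 for NUP160. NXT1 and NUP93 were then called, NXT1 at 1.30 with an edgeR adjusted p of 0.0205 and NUP93 at 0.82 with an edgeR adjusted p of 0.0443.

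Start sites are shown because mRNAs whose first base is C followed by a run of C and T, the terminal oligopyrimidine (TOP) type, were a class of interest in the study. A start was counted as TOP-like where C was followed by 4 or more bases that were C or T, read on the gene's own strand at the RefSeq start. RefSeq gave 62 starts for 48 members, of which 2 were TOP-like (3.23%), against 4.07% of all 35116 starts. The lines give 10 bases before the start and 20 after it (GRCh38.p14), with the first 5 transcribed bases in capitals, for the 2 TOP-like members, for NUP37 as a large rise and for TNPO2 and NXF1 as falls.
NUP133: cgcgcgccatCTCTTcccttaggtgtttaa
IPO7: gcttctctttCCTTTcgcgccggttgccgc
NUP37: aagcagagccACAGCgcgtcgcggcagccc
TNPO2: cccaggtttcAGTCCagcggaactggctac
NXF1: gcgtagggacACTTCggtcctgagcgcttg
NUP133 was read at chr1:229508322-229508351 (minus strand), IPO7 at chr11:9384642-9384671 (plus), NUP37 at chr12:102120095-102120124 (minus), TNPO2 at chr19:12723913-12723942 (minus) and NXF1 at chr11:62805421-62805450 (minus). Of the TOP-like members, IPO7 was called higher and NUP133 was not called. TNPO2 has a further start in RefSeq that was not TOP-like, and the starts used in these cells were not measured.

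The parental line tested whether doxycycline alone moved these genes. None of the 45 members tested there was called in edgeR, and neither was any of the 9124 genes tested, so the background was 0%. NUP35, NUP42 and NUP62CL, all called on induction, were not tested there. Their mean normalized counts in that line were 14.5, 19.2 and 4.72. At an unadjusted p of 0.05, 3 members passed, against 267 of 9124 genes (2.93%). DESeq2 called 1 gene of 9124 and no member. The median SE of a member's log2 fold change was 0.43 in the parental line and 0.20 in the transgene line. Smaller changes could thus be called in the transgene line. Tags outside genes per gene count were 1.14 to 1.50 in No Dox and 1.11 to 1.13 in With Dox. They were 0.0747 to 0.101 in Control and 0.0744 to 0.106 in Induced. Mitochondrial genes held 1.76% to 9.38% of counts in No Dox, 3.68% to 5.39% in With Dox, 0.945% to 1.52% in Control and 0.854% to 1.36% in Induced. The part of these differences in the results was not tested.

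The 3 were TNPO3, NUP214 and XPO6. TNPO3 had 151, 73.8 and 101 CPM in No Dox 1 to 3 and 43.6, 59.4 and 46.4 CPM in With Dox 1 to 3, with no overlap and a log2 fold change of -1.12 ± 0.41 (SE). NUP214 had 64.6, 28.0 and 32.6 CPM in No Dox and 18.9, 11.6 and 22.8 CPM in With Dox, again with no overlap, at -1.24 ± 0.49. XPO6 had 16.6, 31.1 and 44.6 CPM in No Dox and 105, 67.4 and 41.6 CPM in With Dox, which overlapped, at 1.20 ± 0.49. The nuclear RNA MALAT1 also moved between these groups, at 311 to 1350 CPM in No Dox and 100 to 129 CPM in With Dox when scaled by total counts, with no overlap, and its part in these values and in the difference of the responses was not tested. Among the members with the largest rises on induction, NUP37 had 3.69, 32.9 and 6.59 CPM in No Dox and 5.71, 28.3 and 7.33 CPM in With Dox, with overlap. NUP35, not tested in this line, had 1.84, 12.8 and 3.89 CPM in No Dox and 5.71, 8.77 and 9.78 CPM in With Dox, with overlap. NUP54 had 25.2, 19.5 and 9.88 CPM in No Dox and 5.00, 21.5 and 11.4 CPM in With Dox, and XPOT had 40.0, 22.6 and 21.0 CPM in No Dox and 16.8, 23.5 and 9.78 CPM in With Dox. The groups overlapped for both.

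**Figure D4:**
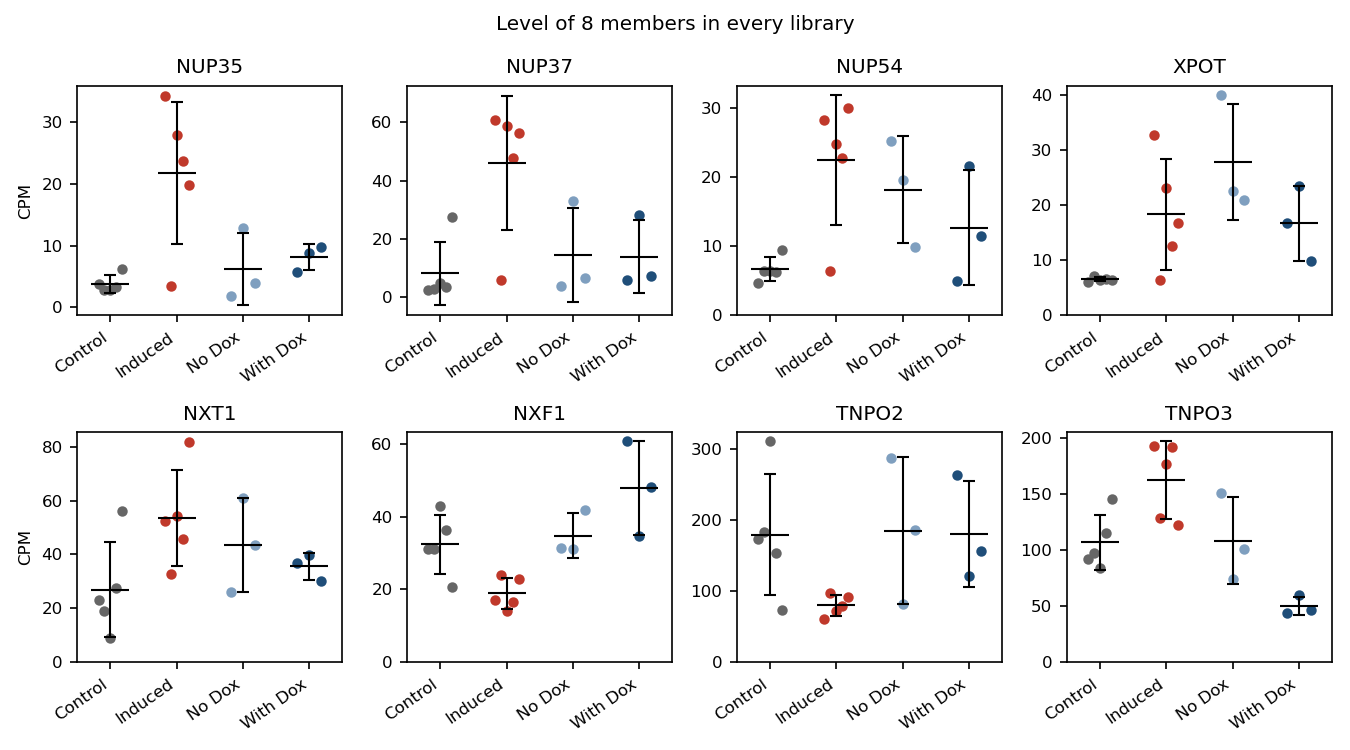
CPM of 8 members (vertical axes, each with its own range) in every library of Control, Induced, No Dox and With Dox, with points for libraries, a line for the group mean and bars of 1 SD. Induced 2 is the low point of NUP35, NUP37, NUP54 and XPOT, and TNPO3 is the gene whose With Dox libraries lie below No Dox while 3 of 5 induced libraries lie above every control.

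The difference of the responses, Induced over Control minus With Dox over No Dox, was tested for 50 members. TNPO3 alone was called, at a log2 difference of 1.50 ± 0.37 (SE) with an edgeR adjusted p of 0.0433, against 2.98% of 12265 genes called. Of 50 members, 18 had an unadjusted p under 0.05, against 26.1% of all genes, and NUP43, XPO6, NUP214, NUP62 and NXF1 had adjusted p values from 0.0504 to 0.0546 in edgeR. Without Control 5 and Induced 2, 18 members were called, 10 higher and 8 lower, against 25.3% of all genes, and leaving out single libraries gave 0 to 15. The 15 were without Control 5, where 2290 of 12125 genes were called. The call of TNPO3 was lost in 13 of 22 alternatives. DESeq2 called 10 of 50 members and 12.1% of all genes. For most members called on induction, a difference between the lines was thus not shown at this depth.

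**Figure D5:**
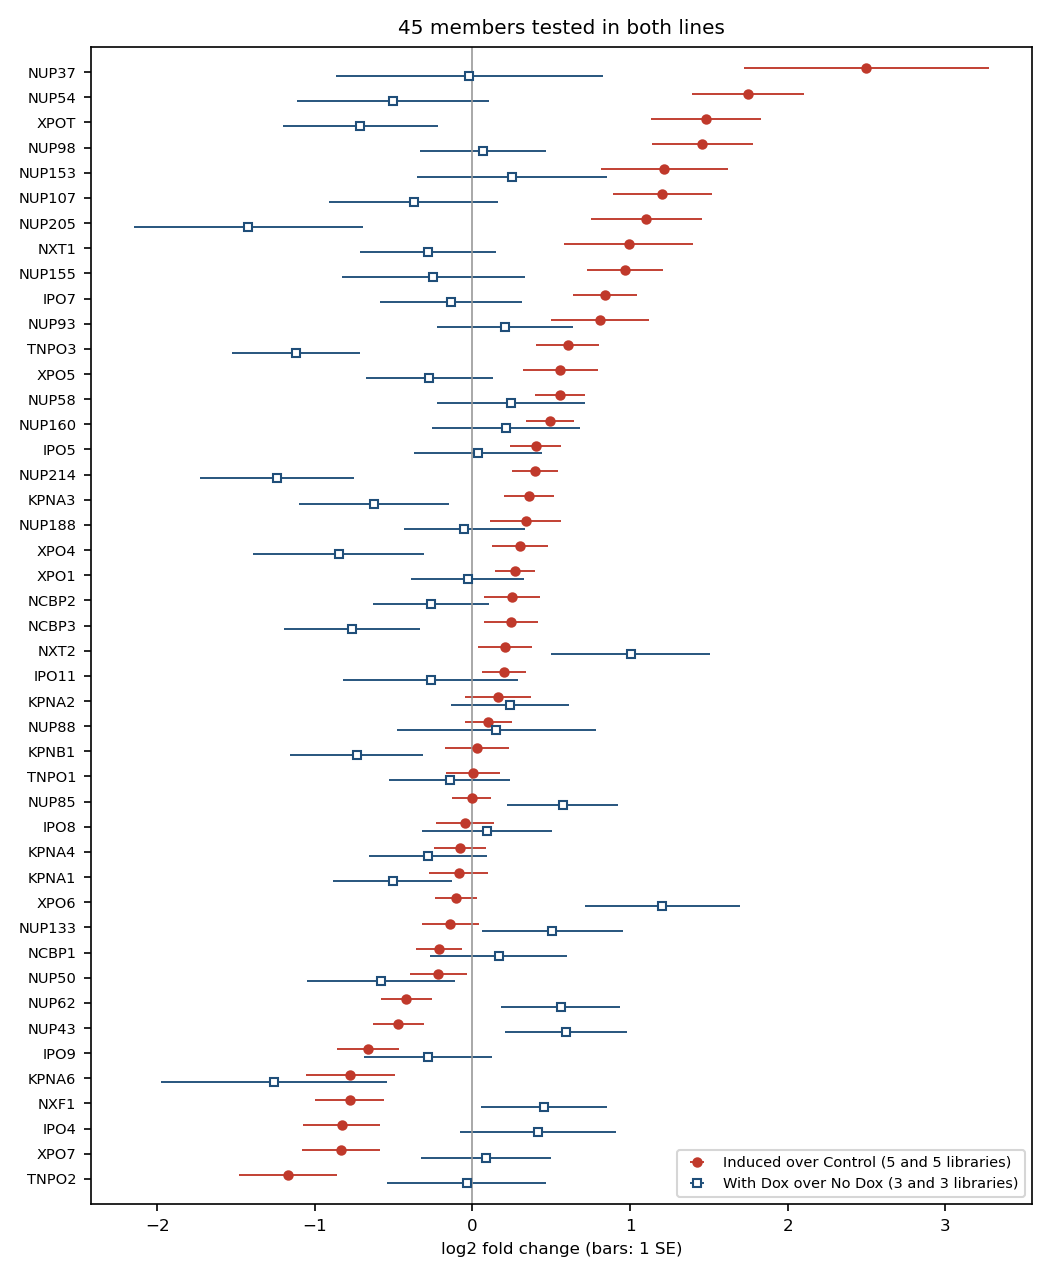
Log2 fold change with bars of 1 SE (horizontal axis) for the 45 members tested in both lines, ordered by the response of the transgene line. Red circles are Induced over Control and open blue squares are With Dox over No Dox, whose bars are wider and which were called for none of the 45.

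Summed over members, their share of all gene counts was 0.265% to 0.314% in Control and 0.351% to 0.394% in Induced, with no overlap. NUP93 alone made up 4.42% to 20.3% of these counts in Control and 16.2% to 23.3% in Induced. Leaving NUP93 out, the share was 0.234% to 0.274% in Control and 0.287% to 0.326% in Induced, still with no overlap. It was 0.317% to 0.376% in No Dox and 0.241% to 0.353% in With Dox with NUP93, where the groups overlapped. These shares depend on total counts and not on TMM. On that scale the median log2 fold change was 0.28 over all genes and 0.51 over members, and 30.8% of all genes were called higher. The like share of other gene sets was not computed. With NUP93, Control 5 at 0.314% was the highest control and Induced 2 at 0.351% the lowest induced library, so they set the facing ends of the ranges. Without NUP93 they were at 0.250% and 0.294%, inside the ranges of their groups.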

How the data were processed

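Cytoplasmic RNA of 16 U2OS-TR libraries was measured as 3′ tags (Lexogen QuantSeq REV), and the authors deposited raw counts per Ensembl gene made with Lexogen's QuantSeq REV pipeline for human GRCh38 on the Blue Bee platform. Which aligner and gene models that pipeline used, and whether counting took account of strand or duplicates, is not given in the sources used here. Groups and treatments came from the labels. The deposited protocol text lists doxycycline for every library, so the group names alone set which were treated. The study calls the libraries with the transgene biological replicates and the parental ones cultures in triplicate, whereas the labels give replicate numbers alone. P-values measure the spread between these libraries.

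Symbols and positions came from GENCODE release 44, which named 56104 of 60107 genes. The members, lists and tests were chosen with earlier results of these data known. Values in every transgene library are given for the called members and for NCBP1, NCBP2, NCBP3, NXF1, NXT1, XPO1 and KPNB1. That makes 29 genes, past the 25 that the rule allowed, and the 4 with the smallest change, KPNB1 and the NCBP genes, were kept. NUP62, SEH1L and AHCTF1 were added after their values were seen. RNMT is given by library too. In the parental line, the text gives library values for TNPO3, NUP214, XPO6, NUP35, NUP37, NUP54 and XPOT alone. Other genes are given only as ranges, group values or estimates.

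Genes with a mean normalized count above 20 were tested with edgeR 4.0.16 in R 4.3.3 (TMM factors, quasi-likelihood test, Benjamini-Hochberg over all tested genes, calls at an adjusted p below 0.05). Each line was fitted alone, and the difference of the responses over all libraries. The SE is the log2 fold change over the square root of the test statistic. The scripts were tested on simulated counts. GC offsets used a lowess of span 0.5 on log counts. No library pair matched within sampling noise. Alternatives were DESeq2 1.42.0, its size factors, total counts, other filters, GC offsets, the replicate number as a block, 1 surrogate variable (sva 3.50.0) and each library left out. Proteins, tag positions and the authors' other assays were not analysed here.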

Additional observations from a re-analysis of the deposited data

Results flagged for a closer look

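In groups of 5 libraries, a library was singled out where its gap to the nearest other was over 0.71 of the group's range, which chance gives in about 1 of 20 groups. For the named members and RNMT this was tried in 60 groups and met in 8, of which 4 were Control 5 and 3 were Induced 2. Control 5 was the highest control for IPO7 (121.6 CPM, others 73.4 to 79.3), NUP37 (27.4 CPM, others 2.29 to 4.67), NUP42 (11.4 CPM, others 2.84 to 5.23) and NUP98 (25.3 CPM, others 9.71 to 13.7). Induced 2 was the lowest induced library for NUP37 (5.69 CPM, others 47.9 to 60.7) and NUP205 (2.82 CPM, others 8.43 to 10.3) and the highest for IPO9 (94.7 CPM, others 62.4 to 65.6). Induced 5 was the lowest for NCBP2 (129.3 CPM, others 173.3 to 180.6).

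TNPO3 had a log2 difference of 1.50 between the responses of the 2 lines and passed edgeR's test of the difference itself, a call lost in 13 of 22 alternatives. Other members had a larger difference in size and were not called. Among them were NUP37 at 2.32, NUP205 at 2.27, NUP54 at 2.01, NUP35 at 1.90 and XPO6 at -1.52. The log2 fold change of TNPO3 was 0.60 in the transgene line, where it was called, and -1.12 in the parental line, where it was not. The library groups of the transgene line overlapped through Control 5, and those of the parental line did not.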

How the results depend on the processing

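The 23 called members kept their sign under all alternatives, but the counts of calls did not hold. Leaving out 1 library gave 8 to 30 members called in the transgene line, 8 to 21 higher and 0 to 9 lower, with medians of 0.20 to 0.32. The count was 8 without Induced 1, 9 without Induced 4, 10 without Control 2 or Induced 3, 12 without Control 1, 13 without Control 4 and 14 without Induced 5. Calls over all genes moved too, from 1869 of 13100 without Induced 1 to 7604 of 12990 without Control 5. Total counts gave 25 higher, 1 lower and a median of 0.51, where 30.8% of all genes were higher and 10.7% lower. GC offsets gave a median of 0.0082. A surrogate variable estimated from TMM-scaled counts, added after seeing the data, gave 0 members called, 0 higher and 0 lower, with 1 gene called in all. From raw counts it gave 24 members, beside 5401 of 13038 genes. The cause of these shifts was not tested. Same-numbered libraries did not deviate together as a rule (r of -0.25, 0.63, -0.37, -0.11 and 0.24 in the transgene line and 0.00, 0.24 and -0.42 in the parental line). Only number 2 had its highest r with its own number, in both lines. Deviations were taken from group means that include Control 5 and Induced 2, so the check cannot settle pairing. The numbers were not taken as pairs. With the replicate block 22 members were called, 18 of them among the 23, beside 5188 of 13038 genes. With the block and GC offsets 15 were called, of which 10 were higher, with a median of 0.026, beside 2997 of 12922 genes. Without Control 5 and Induced 2, 31 were called, beside 8329 of 12956 genes.

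For the difference of the responses the count was 10 with DESeq2 (1478 of 12265 genes), 4 with total counts (506 of 12265), 0 with filterByExpr and 0 with no filter. It was 0 to 15 with 1 library left out and 18 without Control 5 and Induced 2 (3040 of 12003 genes). It was 15 without Control 5, where 2290 of 12125 genes were called, 12 without With Dox 2 (1647 of 12412) and 11 without Induced 2 (1170 of 12135). It was 5 without No Dox 3 (686 of 12342), 2 without No Dox 2 (119 of 12466) and 0 without any other single library. In the parental line no alternative called a member. The member median there was -0.05, -0.20 with total counts and -0.17 to 0.076 with 1 library left out.

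Signs turned only for genes that were not called. KPNB1, at 0.03, was at -0.0072 with DESeq2, -0.0073 with its size factors, -0.021 with the block, -0.22 with the block and GC offsets, -0.23 with GC offsets, -0.020 with 1 surrogate variable, -0.18 without Control 5 and Induced 2, and -0.13 to 0.14 with 1 library left out. NCBP1, at -0.21, was at 0.032 with total counts and at 0.014 with the surrogate variable from scaled counts. NCBP2, at 0.25, was at -0.028 with GC offsets and at -0.048 with the block too. XPO1, at 0.27, was at -0.096 with GC offsets and at -0.085 with the block too. The parental line had the lower depth, fewer libraries per group, more tags outside genes and a higher mitochondrial share. The parts of these in its wider errors were not separated.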
